A study of Chlamydomonas reinhardtii with 45 samples.

Results

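The genes described are those of iron uptake and iron storage in *Chlamydomonas reinhardtii*, a unicellular green alga, chosen by symbol: FEA1, FEA2, FRE1, FOX1, FTR1, IRT1, IRT2, NRAMP4, FER1 and FER2, 10 of the 17609 genes in the table. Poly(A) RNA had been sequenced from populations grown without organic carbon and acclimated to diurnal high light (HL, 1000 PFD), low light (LL, 50 PFD) or moderate light (ML, 200 PFD), where PFD is the photon flux density in µmol photons m−2 s−1 and ML was the control. Each population was collected at 5 timepoints counted from the start of the light phase (−2, +2, +6, +10 and −10 h, the last falling early in the night) with 3 experimental replicates, which gave 45 libraries in 15 groups. All groups shared strain CC-5390, a derivative of the cell wall-reduced cw15 background rescued with ARG7, and days of 12 h light at 28 °C followed by 12 h dark at 18 °C. All groups also shared a high-salt medium with a modified trace element solution, and no iron supply was varied. The LL population had been synchronized in ML before it was moved to LL, and no cell type markers apply to cultures of 1 strain. The study reports that the LL population was less synchronous than ML. Light level and synchrony thus cannot be told apart in comparisons with LL, and the part of synchrony was not tested.

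*Chlamydomonas* takes up iron mainly by a reductive route: a ferric-chelate reductase at the plasma membrane (FRE1) makes ferrous iron, a multicopper ferroxidase (FOX1) oxidizes it again, and a permease (FTR1) carries it inside. The FEA proteins are secreted, periplasmic iron-assimilation proteins, IRT1 and IRT2 are ZIP family transporters, and NRAMP4 is annotated as a manganese or metal transporter of the NRAMP family. Ferritin (FER1, FER2) stores iron in the chloroplast. In this alga, mRNAs of the uptake genes are known as markers of iron nutrition.

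Values are FPKM (fragments per kilobase of transcript, scaled to the mapped fragments of a library), so levels are per length and relative to the library's total mRNA. In RNA from whole cultures, less mRNA per cell and fewer cells with the mRNA cannot be told apart. Differences were tested with limma on log2(FPKM + 1) over the 14602 genes that reached 1 FPKM in 3 or more libraries, and a call needed both a fold change of more than 1 on the log2 scale, in either direction, and an adjusted p below 0.01. On this scale the change of a low gene is understated, so ratios of mean FPKM are given as well. Of the 10 genes, 8 were tested, and IRT1 and FER2 did not reach the minimum level. Groups of 3 libraries without overlap are common: for HL against ML, 21.8% (−2) to 54.4% (+2) of all genes tested had none. The share ran from 28.9% (−2) to 55.8% (+10) for LL against ML. For HL against LL it ran from 27% (−2) to 61.4% (+10). Sequencing depth, read from the spacing of the lowest FPKM values, had a median of 0.955 relative to ML replicate 1 at −2. The shallowest library, LL replicate 1 at −2, was at 0.168, and the others lay between 0.582 and 1.36.

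FRE1 mRNA (Cre04.g227400, the ferric-chelate reductase) had the largest ratio between HL and ML of the 8 iron genes tested, where a ratio could be formed. It was below 0.5 FPKM in HL at every timepoint, and abundant during the day in LL and in ML up to +6. The 15 HL libraries had a lowest FPKM of 0.121, a median of 0.214 and a highest of 0.456. FRE1 thus passed the filter through LL and ML libraries only, and its comparisons with HL are descriptions. At +2 the libraries held 60.2, 56.7 and 50.8 FPKM in LL, against 14.8, 19.9 and 37.7 FPKM in ML. At +6 they held 30.9, 26.7 and 32.0 FPKM in LL, against 9.48, 13.2 and 23.8 FPKM in ML. Both populations with less light peaked 2 h after dawn. At +10 LL libraries held 8.49, 8.09 and 8.72 FPKM, against 0.289, 0.571 and 0.403 FPKM in ML, so that by the end of the day ML was close to the HL level and LL was not. In the dark, LL libraries held 1.53, 1.01 and 1.85 FPKM at −10, against 0.343, 0.137 and 0.277 FPKM in ML. At −2 the values were 3.47, 3.18 and 2.07 FPKM in LL, against 2.64, 2.29 and 8.66 FPKM in ML, where the populations overlapped.

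The HL and ML libraries did not overlap for FRE1 at −2, +2, +6 or +10, and they overlapped at −10. At +2 the mean was 0.355 ± 0.0931 FPKM in HL and 24.1 ± 12.0 FPKM in ML (SD, n = 3 each), 67.9-fold lower in HL, with a log2 fold change of −4.11 ± 0.27 (SE; limma adjusted p = 4.44e-14). FRE1 was also lower in HL at +6 (log2 fold change −3.61, limma adjusted p = 5.46e-12) and at −2 (−2.03, limma adjusted p = 1.14e-05). The call at −2 was lost without replicate 2 (−2.30, limma adjusted p = 0.0140) and with each timepoint modelled alone (limma adjusted p = 0.0740). At +10 the means were 0.145 FPKM in HL and 0.421 FPKM in ML, and the difference was not called (limma adjusted p = 0.416). At a pseudocount of 0.01 it was called (−1.45, limma adjusted p = 0.00813).

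LL and ML libraries did not overlap for FRE1 at +2, +6, +10 or −10, and FRE1 was called higher in LL at +2 and +10. The difference at +10 was the larger: 8.44 ± 0.319 FPKM in LL against 0.421 ± 0.142 FPKM in ML (SD, n = 3 each), 20.0-fold, with a log2 fold change of 2.74 ± 0.27 (SE; limma adjusted p = 6.71e-10). At +2 the ratio was 2.32 and the log2 fold change 1.28 (limma adjusted p = 0.000221), and this call was lost without replicate 1 (0.94, limma adjusted p = 0.0444) and without replicate 2 (1.19, limma adjusted p = 0.0296). At +6 the log2 fold change of 0.99 lay just inside the fold threshold (limma adjusted p = 0.00486). At −10 the means were 1.47 FPKM in LL and 0.252 FPKM in ML, with a log2 fold change of 0.97 (limma adjusted p = 0.00567). The difference at −10 became a call at pseudocounts of 0.1 (2.16, limma adjusted p = 1.55e-05) and 0.01 (2.54, limma adjusted p = 9.11e-06). ML replicate 3 was the highest ML library for FRE1 at −2, +2 and +6, at 3.51, 2.17 and 2.10 times the mean of the other two. Without ML replicate 3 the log2 fold change at +6 was 1.33 (limma adjusted p = 9.77e-08), and in the other light comparisons FRE1 stayed on the same side of the thresholds.

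FEA1 mRNA (Cre12.g546550, an Fe-assimilation protein) had lower levels than FRE1, with a sharp peak at +2 in LL and ML and no such peak in HL. After the peak their courses differed in LL. There the FEA1 mean was 26.2 FPKM at +2, 2.59 FPKM at +6 and 2.75 FPKM at +10. FRE1 fell more slowly, with means of 55.9, 29.9 and 8.44 FPKM. At +2 it had 0.335, 0.0623 and 0.209 FPKM in HL, 32.1, 28.4 and 18.1 FPKM in LL, and 6.14, 17.0 and 6.77 FPKM in ML. The 3 populations did not overlap, and LL was the highest. Over all 15 HL libraries the FEA1 level had a median of 0.0623 FPKM and a highest value of 0.335 FPKM, with 3 libraries at 0, so ratios against HL rest on very few fragments. FEA1 too passed the filter through LL and ML libraries only, and its comparisons with HL are descriptions.

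At +2 the FEA1 mean was 49.4-fold lower in HL than in ML, with a log2 fold change of −3.06 ± 0.24 (SE; limma adjusted p = 2.15e-12). It was 2.63-fold higher in LL than in ML, with a log2 fold change of 1.41 ± 0.24 (SE; limma adjusted p = 9.63e-06), a call that was lost without replicate 1 (1.00, limma adjusted p = 0.0124), with each timepoint modelled alone (limma adjusted p = 0.0102) and at a pseudocount of 0.01 (1.51, limma adjusted p = 0.192). At +6 FEA1 had 0.277, 0 and 0.0309 FPKM in HL, 2.71, 2.36 and 2.70 FPKM in LL, and 0.831, 1.45 and 3.59 FPKM in ML, where LL and ML overlapped. The lower level in HL than in ML at +6 (log2 fold change −1.32, limma adjusted p = 9.03e-05) was lost without ML replicate 3 (−0.95, limma adjusted p = 0.00206) and with each timepoint modelled alone (limma adjusted p = 0.0143). At +10 LL still held 2.90, 2.75 and 2.62 FPKM, against 0.127, 0.148 and 0.131 FPKM in ML, a 20.3-fold ratio (log2 fold change 1.72 ± 0.24, SE; limma adjusted p = 4.67e-07). In the night, at −10 and −2, FEA1 was below 0.5 FPKM in all but 1 library, ML replicate 3 at −2 with 1.13 FPKM.

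FEA1 lies between FEA2 and TEF22 in the gene order of the RefSeq annotation (assembly v5.5, used for names and neighbours only). TEF22 (Cre12.g546500), a gene of unannotated function from the list of other genes known from iron nutrition, had the mRNA pattern nearest to FEA1 of all genes tested (Pearson r = 0.993 over the 15 group means of log2(FPKM + 1), a description). At +2 TEF22 had 0.0833, 0.244 and 0.139 FPKM in HL, 9.87, 9.09 and 4.77 FPKM in LL, and 2.87, 5.40 and 2.34 FPKM in ML. HL was below both other populations, and LL and ML overlapped. Its log2 fold change was −1.92 for HL against ML (limma adjusted p = 4.50e-11) and −2.90 for HL against LL (limma adjusted p = 1.06e-15). TEF22 had a highest HL value of 0.244 FPKM and passed the filter through LL and ML only, so these are descriptions too.

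**Figure D1:**
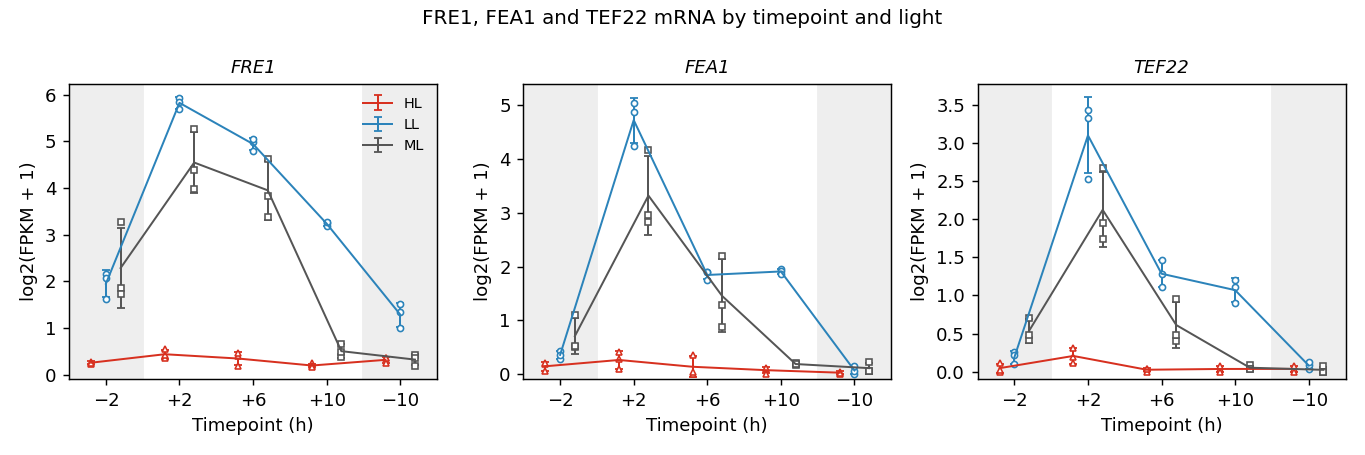
log2(FPKM + 1) of FRE1, FEA1 and TEF22 (y axes) at the 5 timepoints in hours from the start of the light phase (x axes) in HL, LL and ML; points are the 3 libraries of a group, lines join their means, bars are SD and grey marks the night. HL stays near 0 for all 3 genes, LL and ML peak at +2, and at +10 LL is the highest for all 3 genes, with 8.44 FPKM of FRE1 and 2.75 FPKM of FEA1 on average.

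FEA2 mRNA (Cre12.g546600, the neighbouring Fe-assimilation gene) also peaked at +2, but did so in all 3 populations. At +2 it had 1.93, 1.59 and 2.41 FPKM in HL, 2.78, 1.87 and 2.53 FPKM in LL, and 3.96, 5.05 and 2.10 FPKM in ML, values that rest on an estimated 25 to 40 fragments in HL, 25 to 46 in LL and 29 to 112 in ML. The ranges overlapped between all populations, and no light comparison of FEA2 was called at any timepoint. At +2 the log2 fold change was −0.62 ± 0.18 for HL against ML (SE; limma adjusted p = 0.00647) and −0.43 ± 0.18 for LL against ML (SE; limma adjusted p = 0.0573). The gene was listed at 0 in all 3 HL libraries at +10, where 3 fragments in a library are worth 0.148 to 0.170 FPKM (counting error only), against an estimated 6, 6 and 3 fragments in LL and 1, 4 and 2 in ML. HL thus lay below both without overlap at +10, on very few fragments, and the log2 fold change against ML was −0.13 (limma adjusted p = 0.632). At −2 the order was the other way. HL had 0.854, 0.817 and 0.600 FPKM, on an estimated 18, 17 and 12 fragments, above LL and ML without overlap. The log2 fold change against ML at −2 was 0.28 (limma adjusted p = 0.608). How reads shared by FEA1 and FEA2 were divided is not given in the sources used here.

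FOX1 mRNA (Cre09.g393150, the multicopper ferroxidase) was lower in HL than in ML at all 5 timepoints without overlap, and its LL to ML order turned over the day. At +2 it had 22.4, 28.6 and 26.2 FPKM in HL, 52.0, 49.3 and 38.5 FPKM in LL, and 51.6, 61.1 and 48.0 FPKM in ML. At +10 it had 9.08, 8.94 and 9.36 FPKM in HL, 41.9, 41.8 and 41.1 FPKM in LL, and 18.2, 23.6 and 24.0 FPKM in ML. At −10 it had 9.78, 15.03 and 12.0 FPKM in HL, 11.4, 9.09 and 6.62 FPKM in LL, and 24.0, 27.6 and 19.1 FPKM in ML. HL and LL overlapped at −10, while at +10 the populations were ordered LL, ML and HL from high to low with no overlap. Of all genes tested, 21.8% at −2, 54.4% at +2, 37.3% at +6, 51.8% at +10 and 27.7% at −10 had no overlap between HL and ML.

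The lower FOX1 level in HL than in ML was called at +2 (2.08-fold, log2 fold change −1.03 ± 0.15, SE; limma adjusted p = 6.01e-07) and at +10 (2.403-fold, −1.17 ± 0.15, SE; limma adjusted p = 1.66e-07). The call at +2 was lost without replicate 1 (−0.96) and under quantile normalization (−0.88). At −2, +6 and −10 the ratios were 1.75, 1.69 and 1.92, with limma adjusted p values of 0.00107, 0.000572 and 3.62e-05 but log2 fold changes short of the threshold. Without ML replicate 3 the difference at −10 was past it, at −1.03. In LL, FOX1 was lower than in ML at −10 (2.62-fold, log2 fold change −1.31, limma adjusted p = 8.54e-09). At +10 it was 1.90 times the ML level, with a log2 fold change of 0.90 that did not pass the fold threshold.

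FTR1 mRNA (Cre03.g192050, the iron permease) was present in every library, from 5.73 to 44.9 FPKM, and was lower in HL than in ML at all 5 timepoints without overlap. At −2 it had 28.0, 26.7 and 28.2 FPKM in HL, 33.5, 32.7 and 35.4 FPKM in LL, and 43.9, 43.3 and 44.9 FPKM in ML. At +10 it had 5.73, 5.88 and 5.76 FPKM in HL, 23.6, 23.6 and 22.3 FPKM in LL, and 14.5, 16.9 and 15.3 FPKM in ML. The replicates lay close together, and ML was the highest population at −2 whereas LL was the highest at +10.

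For FTR1, the difference between HL and ML at +10 was called (2.69-fold lower, log2 fold change −1.29 ± 0.09, SE; limma adjusted p = 1.55e-12). At −2, +2, +6 and −10 the mean was 1.59, 1.61, 1.68 and 1.81 times lower in HL, with limma adjusted p values of 1.42e-05 and below, but under the fold threshold. Against ML, the LL level of FTR1 was 1.30 times lower at −2 and 1.54 times lower at −10, and 1.29 times higher at +6 and 1.49 times higher at +10. None of these was called, although each had a limma adjusted p of 0.00282 or below.

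NRAMP4 mRNA (Cre05.g248300) peaked at +2 in all populations and was lowest at +10 in HL and ML. At +10 it had 1.54, 1.43 and 1.56 FPKM in HL, 5.53, 5.10 and 6.19 FPKM in LL, and 1.65, 2.75 and 2.67 FPKM in ML. The 3 populations did not overlap and LL was the highest. HL was 3.72-fold lower than LL (log2 fold change −1.39 ± 0.15, SE; limma adjusted p = 1.77e-09), while LL was 2.38 times ML with a log2 fold change of 0.99 just short of the threshold (limma adjusted p = 1.46e-06). It became a call in 8 of 17 alternatives, 1 of which had no fold threshold, and among them were both smaller pseudocounts (1.25 and 1.28), scaling to the same median (1.01), quantile normalization (1.08) and leaving out replicate 2 (1.14). At +2 the means were 12.7 ± 1.25 FPKM in HL, 17.2 ± 3.75 FPKM in LL and 15.7 ± 1.73 FPKM in ML (SD, n = 3 each), and neighbouring levels overlapped.

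**Figure D2:**
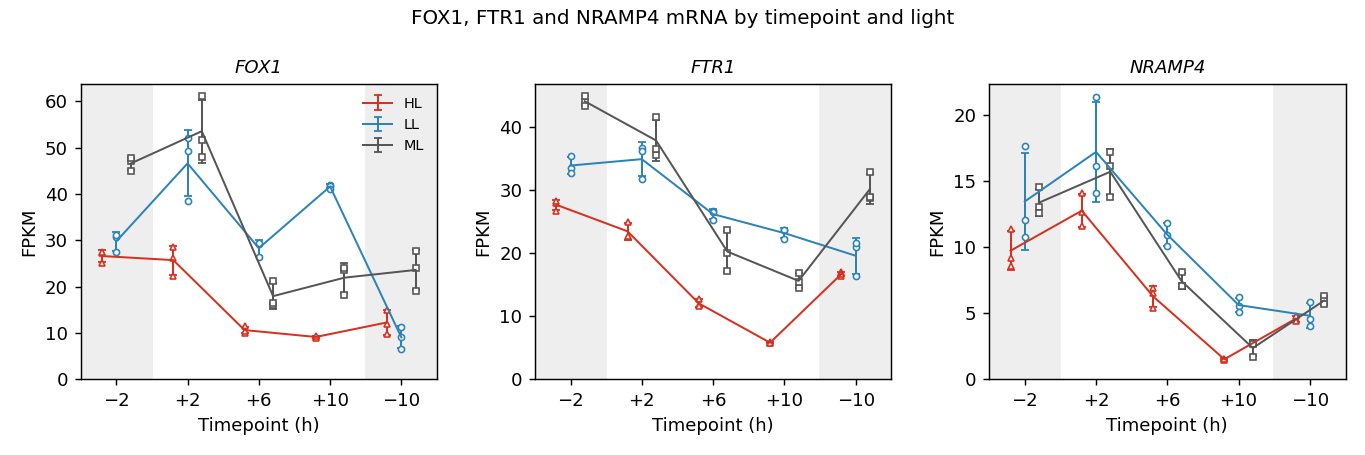
FPKM of FOX1, FTR1 and NRAMP4 (y axes) at the 5 timepoints in hours from the start of the light phase (x axes) in HL, LL and ML; points are the 3 libraries of a group, lines join their means, bars are SD and grey marks the night. HL lies below ML for FOX1 and FTR1 at every timepoint, and LL crosses ML during the day, with 41.6 FPKM of FOX1 against 21.9 FPKM in ML at +10.

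The ZIP family genes were at or near the detection limit. IRT1 (Cre12.g530400) was listed at 0 in 37 of 45 libraries, with a highest value of 0.0944 FPKM, so it gives no comparison. IRT2 (Cre12.g530350), its neighbour in the gene order, was below 1.5 FPKM except at +10, where it had 1.20, 0.850 and 0.993 FPKM in HL, 2.06, 1.73 and 1.75 FPKM in LL, and 2.83, 2.22 and 3.24 FPKM in ML. The populations did not overlap at +10, and ML was the highest. HL was 2.72-fold lower than ML in mean FPKM, with a log2 fold change of −0.90 ± 0.15 (SE; limma adjusted p = 1.61e-05) that was short of the fold threshold. IRT2 thus peaked at the end of the day in all populations, when FTR1 and NRAMP4 were at their lowest in HL and ML.

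FER1 mRNA (Cre09.g387800, pre-apoferritin) was the most abundant member, and the only one whose lowest level was at −2 in all populations. At −2 it had 22.0, 19.5 and 20.1 FPKM in HL, 17.3, 22.4 and 24.7 FPKM in LL, and 35.8, 39.6 and 40.6 FPKM in ML. HL and LL overlapped each other, and both lay below ML. The level was 1.88-fold lower in HL than in ML (log2 fold change −0.88 ± 0.09, SE; limma adjusted p = 2.92e-07) and 1.80-fold lower in LL than in ML (−0.83 ± 0.09, SE; limma adjusted p = 3.69e-08), both short of the fold threshold.

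During the day FER1 differed between populations by less than the fold threshold, with a change in order between HL and LL. At +2 its means were 90.2 ± 7.13 FPKM in HL, 72.2 ± 7.62 FPKM in LL and 85.7 ± 7.46 FPKM in ML (SD, n = 3 each), where HL and ML overlapped (log2 fold change 0.07, limma adjusted p = 0.601). The highest mean came at +2 in HL, at +6 in ML with 101 FPKM, and at +10 in LL with 89.6 FPKM. At +6 LL was 1.35-fold lower than ML (log2 fold change −0.43, limma adjusted p = 0.000553), and no light comparison of FER1 was called. HL lay above LL without overlap at +2 and +6 (log2 fold changes 0.32 and 0.24, limma adjusted p = 0.00770 and 0.0719). At +10 HL lay below LL and ML without overlap (−0.27 and −0.28, limma adjusted p = 0.0187 and 0.0203). FER2 (Cre13.g574500, the other ferritin subunit) reached 1 FPKM in 2 libraries, both ML, and had a highest value of 1.17 FPKM. Its mean was highest at −2 in HL, at 0.884 FPKM, while ML had 0.870 FPKM at −2 and 0.854 FPKM at +2. FER2 and was near 0 in all populations at +6, with means of 0.0401 FPKM in HL, 0.0258 FPKM in LL and 0.0289 FPKM in ML.

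**Figure D3:**
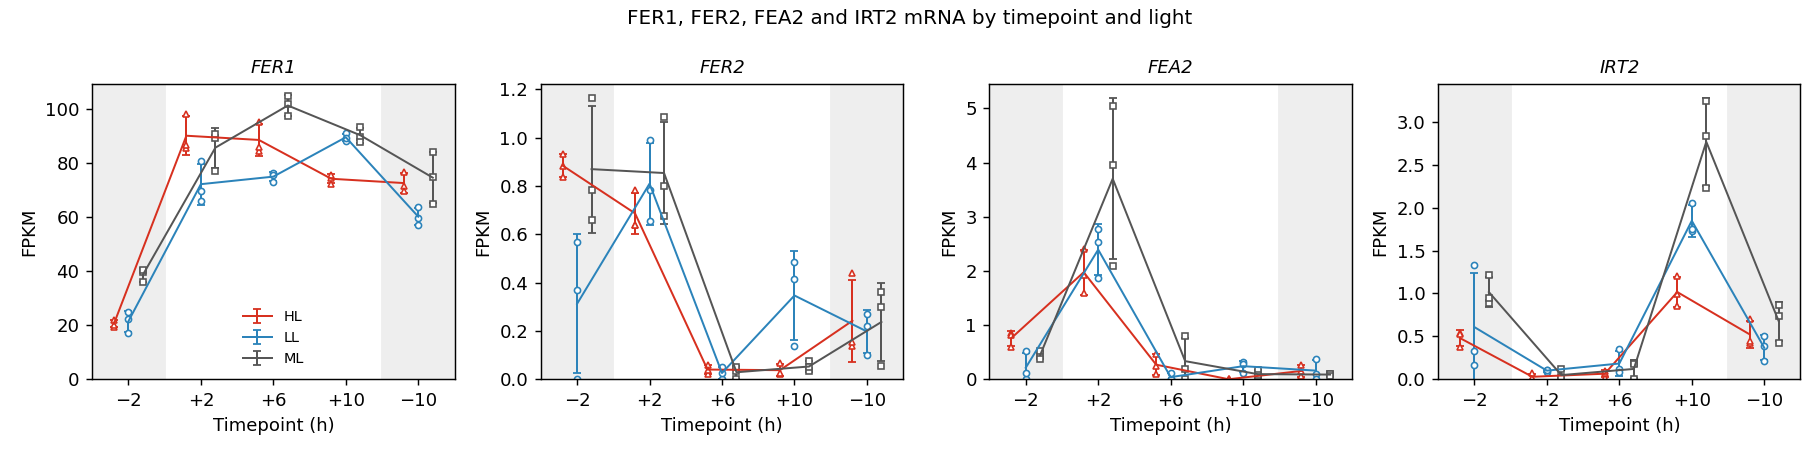
FPKM of FER1, FER2, FEA2 and IRT2 (y axes) at the 5 timepoints in hours from the start of the light phase (x axes) in HL, LL and ML; points are the 3 libraries of a group, lines join their means, bars are SD and grey marks the night. FER1 is lowest at −2, where HL (20.5 FPKM) and LL (21.5 FPKM) lie below ML (38.7 FPKM), FEA2 peaks at +2 and IRT2 at +10 in all 3 populations.

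Counted over the 8 genes tested, HL against ML gave 8 of 40 possible calls, all lower in HL: 1 gene at −2 (FRE1), 3 at +2 (FRE1, FOX1, FEA1), 2 at +6 (FRE1, FEA1), 2 at +10 (FTR1, FOX1) and 0 at −10, where limma gave 3 genes an unadjusted p below 0.05. Over all genes tested, the share called in that comparison was 0.507% at −2, 5.96% at +2, 2.01% at +6, 3.68% at +10 and 1.08% at −10. The median log2 fold change of the 8 genes ran from −0.64 at +2 to −0.11 at −10, and that of all genes tested from −0.04 to 0.04. FEA2, IRT2, NRAMP4 and FER1 were not called in HL against ML at any timepoint. FRE1 and FEA1 passed the filter through LL and ML libraries only, with highest HL values of 0.456 and 0.335 FPKM. Their calls against HL, though counted, are descriptions.

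LL against ML, which shares the ML libraries with the comparison above, gave 5 of 40 possible calls. FRE1 and FEA1 were higher at +2 and at +10, and FOX1 was lower at −10. At −2 and +6 there were 0 calls, where limma gave 4 and 5 genes an unadjusted p below 0.05. The share of all genes called was 2.94% at −2, 7.51% at +2, 3.88% at +6, 4.95% at +10 and 4.85% at −10. The median log2 fold change of the 8 genes was −0.36 at −2, −0.02 at +2, 0.38 at +6, 0.72 at +10 and −0.28 at −10, against −0.02, 0.03, −0.01, −0.05 and 0.03 over all genes tested.

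HL against LL, which uses no ML library, gave 12 of 40 possible calls, all lower in HL. They were FRE1 at −2, FRE1 and FEA1 at +2, those 2 genes with FTR1 and FOX1 at +6, and the same 4 with NRAMP4 at +10. The calls of FRE1 and FEA1, which passed the filter without an HL library, are descriptions here as well. There were 0 calls at −10, where limma gave 4 genes an unadjusted p below 0.05. FRE1 at −10 had a log2 fold change of −0.97, and it was called at pseudocounts of 0.1 (−2.16, limma adjusted p = 1.61e-05) and 0.01 (−2.51, limma adjusted p = 1.11e-05). The FRE1 call at −2 was lost without replicate 2 (−1.62, limma adjusted p = 0.0185) and with each timepoint modelled alone (limma adjusted p = 0.0348). The share of all genes called was 1.91% at −2, 5.15% at +2, 3.06% at +6, 5.37% at +10 and 4.76% at −10. FRE1 was the farthest apart, at 157-fold lower in HL at +2 (log2 fold change −5.39 ± 0.27, SE; limma adjusted p = 1.71e-17). At +10 FOX1 was 4.56-fold and FTR1 3.997-fold lower in HL, with limma adjusted p values of 2.27e-13 and 1.79e-17.

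**Figure D4:**
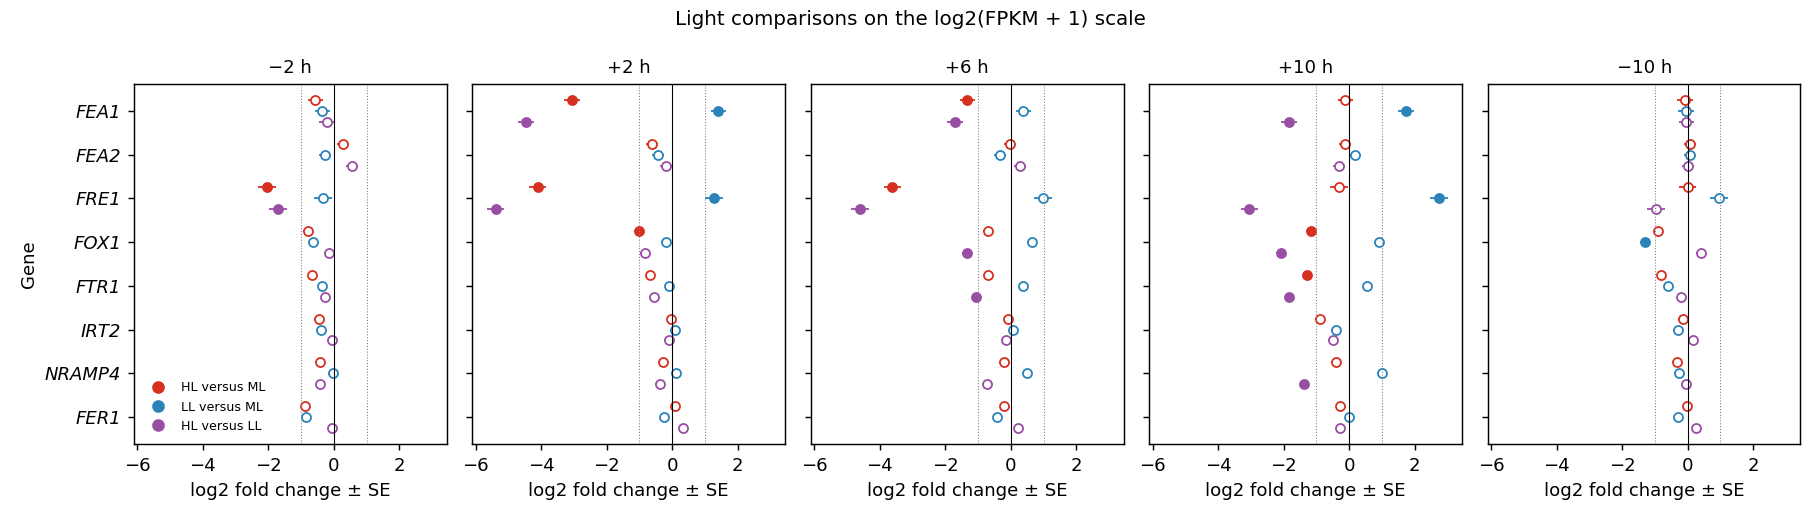
log2 fold change ± SE on the log2(FPKM + 1) scale (x axes) of the 8 genes tested (y axis), one panel per timepoint, for HL versus ML, LL versus ML and HL versus LL; filled points were called, and dotted lines mark the fold threshold of 1. All filled HL points lie to the left of 0, from −1.03 to −5.39, and filled LL versus ML points lie to the right except FOX1 at −10.

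Libraries stood in the order LL above ML above HL with no overlap for 0 of 8 genes at −2, 2 at +2 (FRE1, FEA1), 4 at +6 (FTR1, FRE1, NRAMP4, FOX1), 5 at +10 (the same 4 and FEA1) and 0 at −10. Over all genes tested, the share in that order was 0.712%, 2.68%, 1.44%, 4.35% and 1.1% at these timepoints. The opposite order, HL above ML above LL, was found for none of the 8 genes at any timepoint. Its share over all genes was not computed, so this is a description only. The places of FRE1 and FEA1, which passed the filter without an HL library, are also descriptions.

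The 8 genes also moved with the time of day, as did many other mRNAs. Between consecutive timepoints 38 of 120 possible calls were made, 15 in LL, 15 in ML and 8 in HL. FEA2 reached 1 FPKM only at +2 (9 libraries), and IRT2 mainly at +10. Both passed the filter through those libraries, so their steps to and from those timepoints, though counted, are descriptions. From −2 to +2, FRE1, FER1, FEA1 and FEA2 rose in LL and in ML, while in HL FER1 was the only one called (log2 fold changes 1.71 in LL, 1.13 in ML and 2.08 in HL for FER1). The FER1 step in ML was 0.48 under quantile normalization. The share of all genes called for that step was 32.2% in LL, 38.9% in ML and 35% in HL.

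From +2 to +6, FEA1 and FEA2 fell in LL, FOX1, FEA1 and FEA2 in ML, and FOX1 and FEA2 in HL, against 20.1%, 29.7% and 19.7% of all genes called in LL, ML and HL. From +6 to +10, FRE1 fell in LL and ML, by 1.71 and 3.45 on the log2 scale, FEA1 fell in ML (−1.27, and −0.90 without ML replicate 3), NRAMP4 fell in ML and HL, and IRT2 rose in LL and ML. For that step 19.2%, 28.4% and 28.9% of all genes were called in LL, ML and HL.

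From +10 to −10, the first step into the dark, FRE1, FOX1, IRT2 and FEA1 fell in LL, IRT2 fell and NRAMP4 rose in ML, and FTR1 and NRAMP4 rose in HL, with 27.9%, 43.3% and 36.3% of all genes called in LL, ML and HL. FTR1 in ML had a log2 fold change of 0.91 over that step (limma adjusted p = 2.64e-11), which passed the fold threshold under scaling to the same median (1.25) and quantile normalization (1.04). Without replicate 1 the NRAMP4 step in ML (0.87) and the IRT2 step in LL (−0.93) were below the fold threshold, and without ML replicate 3 the IRT2 step in ML (−0.97) was. From −10 to −2, NRAMP4 and FOX1 rose and FER1 fell in LL, FRE1 and NRAMP4 rose in ML, and FOX1 rose and FER1 fell in HL, with 16.7%, 18.3% and 16.8% of all genes called. For that step NRAMP4 in ML had a log2 fold change of 0.96 without ML replicate 3, and FOX1 in HL one of 0.92 without replicate 1. FER1 fell late in the night by 1.46 in LL and 1.77 in HL on the log2 scale.

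The light effect differed between timepoints for 7 of the 8 genes by limma's interaction test, all but FEA2 (limma adjusted p = 0.0141). The same test was passed by 67.2% of all genes tested, so this share is common in these libraries.

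Among the members, FRE1 and FEA1 were the most alike over the 15 group means (Pearson r = 0.906), followed by FTR1 with NRAMP4 (0.849) and FTR1 with FOX1 (0.819). FER1 had r of −0.373 with FTR1 and −0.175 with FOX1. The gene of the whole table nearest to FOX1 was Cre09.g801014 (r = 0.988), which carries no description in the files, was present at 87.4 FPKM on average and whose overlap with FOX1 is not known from the files used here. The nearest to FTR1 was Cre02.g094650 (0.875), to FRE1 Cre03.g186600 (0.940) and to IRT2 Cre13.g604450 (0.929), none of them described. NRAMP4 was followed by a halo-acid dehalogenase-like hydrolase (Cre09.g403750, 0.961) and the cytosolic ribosomal protein genes RPS24 and RPS6 (0.960 each). FER1 was nearest to Cre16.g683300 (0.964) and the small nuclear ribonucleoprotein genes SMP4 (0.962) and SMP9 (0.961), and FEA2 to the translation initiation factor gene EIF5B1 (0.973), the aspartate aminotransferase gene AST5 (0.968) and the methionyl-tRNA synthetase gene TSM2 (0.967). Next in likeness were Cre08.g374200 (0.869) and RPP30 (0.864) for FTR1, Cre05.g246600 (0.898) for FRE1, Cre09.g388430 (0.821) for FOX1, Cre01.g022850 (0.912) and Cre03.g800417 (0.905) for IRT2, and Cre16.g661750 (0.924) and Cre16.g661850 (0.920) for FEA1. All these values are over 15 group means from the same libraries.

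Of 33 other metal transporters and metal chaperones, 32 were tested, and at +2 HL against ML gave 6 higher and 0 lower: the zinc transporter genes ZRT1, ZRT2, ZRT3 and ZRT4, the metal transporter gene MTP1 and the ferroxidase homologue FOX2. Over all genes tested, 5.96% were called in that comparison, 658 genes higher and 213 lower. ZRT3 had 51.4, 68.6 and 50.9 FPKM in HL, against 0.760, 16.1 and 6.55 FPKM in ML (log2 fold change 3.23, limma adjusted p = 4.58e-09). ZRT1 had 54.2, 81.8 and 70.5 FPKM in HL, against 3.57, 33.4 and 15.7 FPKM in ML (log2 fold change 2.32, limma adjusted p = 3.41e-07). FOX2 (Cre12.g531200), a ferroxidase-like gene, had 2.62, 2.83 and 2.04 FPKM in HL, against 0.457, 0.476 and 0.385 FPKM in ML (log2 fold change 1.27, limma adjusted p = 9.87e-08), where FOX1 was lower in HL.

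At the remaining timepoints that list gave few calls in HL against ML, with 1 lower at +6 (CTR3, annotated as a copper transport accessory protein, −1.58) and 1 lower at +10 (ZRT2, −1.21). It gave 0 at −2 and 0 at −10, where limma gave 2 and 5 of its genes an unadjusted p below 0.05. In LL against ML it gave FPN2 higher (1.04) and ZRT2 lower (−1.04) at +2 and ZRT5 lower (−1.17) at +6, where FPN2, like FPN3 of the same list, is described in the files as a flagellar 5'-nucleotidase and not as a metal transporter. HL against LL gave ZRT1, ZRT2, ZRT3, ZRT5 and MTP1 higher at +2, ZRT4 higher at +6 and ZRT2 lower at +10. The median log2 fold change of the list for HL against ML at +2 was 0.22, beside 0.04 over all genes tested. In HL against ML, 0.507% of all genes tested were called at −2, 2.01% at +6, 3.68% at +10 and 1.08% at −10. In LL against ML the share was 7.51% at +2 and 3.88% at +6. In HL against LL it was 5.15% at +2, 3.06% at +6 and 5.37% at +10.

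The list of iron-sulfur cluster assembly genes was made by symbol and held 14 genes, of which CIA6 is described in the files as a methyltransferase of pyrenoid biogenesis and not as an assembly factor. All were tested, and they gave 0 calls in the 10 comparisons with ML, where limma gave 0 to 7 of them an unadjusted p below 0.05, and 1 call in the 5 comparisons of HL against LL. That gene was HCF101, a chloroplast iron-sulfur scaffold, with 2.18 FPKM in HL and 6.16 FPKM in LL at +10 (log2 fold change −1.18, limma adjusted p = 1.65e-09). Over all genes tested, 0.507% to 7.51% were called per comparison with ML, and 1.91% to 5.37% for HL against LL. With 14 genes, 0 or 1 call is near these shares.

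Of 27 other genes known from iron nutrition, 24 were tested. The list also holds genes annotated for copper response, among them CRR1 and CHL27A, so a call in it need not concern iron nutrition. In HL against ML at +2, the manganese superoxide dismutase genes MSD1 and MSD2, the heme oxygenase gene HMOX2 and the cytochrome c6 gene CYC6 were higher (1.44, 1.08, 1.57 and 1.35 on the log2 scale) and TEF22 was lower. At +6, CYC6 (−2.70), FDX5 (−3.50), a ferredoxin gene, and CHL27A (−3.22), which encodes a diiron enzyme of chlorophyll synthesis, were lower in HL. CHL27A had 46.0, 46.8 and 28.3 FPKM in HL, against 374, 342 and 415 FPKM in ML. This list gave 0 calls in HL against ML at −2, +10 and −10, where limma gave 4, 13 and 9 of its genes an unadjusted p below 0.05. Over all genes tested, the share called was 0.507% at −2, 5.96% at +2, 2.01% at +6, 3.68% at +10 and 1.08% at −10.

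In LL against ML, that list gave MSD3 higher (1.59) at −2, MSD1 and MSD2 higher (1.32 and 1.29) and CYC6 lower (−1.62) at +2, and MSD3 higher (1.28) with CHL27A, CYC6 and FDX5 lower (−1.05, −2.90 and −2.01) at +6. At +10 TEF22 (1.02), CHL27A (2.21), the iron superoxide dismutase gene FSD1 (1.16) and the ferredoxin genes FDX3 and FDX7 (1.30 and 1.24) were higher and CYC6 (−4.04) was lower. At −10 the plastocyanin gene PCY1 was higher (1.15). For HL against LL the list gave 1 gene lower at −2 (MSD3), 2 higher and 1 lower at +2, 4 lower at +6, 1 higher and 5 lower at +10 and 1 in each direction at −10, with TEF22 among the lower ones at +2, +6 and +10. In LL against ML, the share of all genes called was 2.94% at −2, 7.51% at +2, 3.88% at +6, 4.95% at +10 and 4.85% at −10. For HL against LL it was 1.91%, 5.15%, 3.06%, 5.37% and 4.76% at these timepoints. CYC6 and CHL27A are also known to respond to copper supply.

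**Figure D5:**
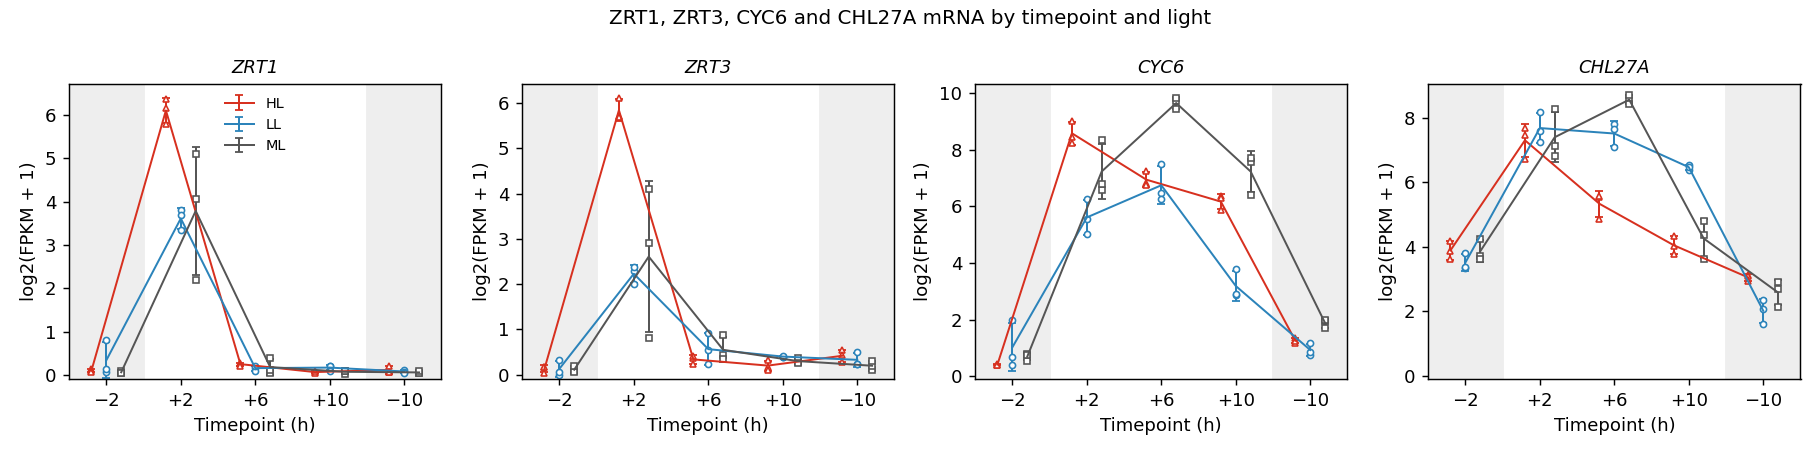
log2(FPKM + 1) of ZRT1, ZRT3, CYC6 and CHL27A (y axes) at the 5 timepoints in hours from the start of the light phase (x axes) in HL, LL and ML; points are the 3 libraries of a group, lines join their means, bars are SD and grey marks the night. At +2 the zinc transporter genes are highest in HL, with 56.9 FPKM of ZRT3 against 7.80 FPKM in ML, and at +6 CHL27A is lowest in HL, with 40.3 FPKM against 377 FPKM in ML.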

How the data were processed

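FPKM were deposited by the authors as 1 value per gene and library. Per their methods and processing notes they aligned strand-specific reads of 50 nt with STAR 2.4.0j to the CC-4532 v6.1 genome and computed FPKM with Cuffdiff 2.0.2. Group-mean FPKM were not used. Cuffdiff values are relative to each library's total, so absolute mRNA per cell is not seen, and depth was estimated from steps between low values (82.5% of 6233 values were whole multiples within 0.1). For FEA2, 24 of 24 values below 12 fragments were whole multiples of 1 fragment. In both cases the size of 1 fragment was set from the same values, so neither share is an independent check.

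Libraries were grouped by their titles. limma 3.58.1 (R 4.3.3) was fitted to log2(FPKM + 1), pseudocount 1, with 1 model of 15 groups and empirical Bayes trend. Genes were kept if they reached 1 FPKM in 3 or more libraries, and p-values were adjusted by Benjamini-Hochberg within each comparison. Calls needed an absolute log2 fold change above 1 and an adjusted p below 0.01. The fit was tested on simulated data. Named are all members, list genes past these thresholds, and the 3 genes with the most similar pattern per member. The members and lists were chosen with earlier results of these data known. No 2 replicates held identical values (0 of 45 pairs). Replicates are separate experiments per the study's methods, while libraries of 1 replicate number were not shown to share a culture. RNA was extracted in batches, whose members are not given in the sources used here, so batch was not tested. Alternatives covered the pseudocount, filters, thresholds, trend, scaling, each replicate and timepoints modelled alone. All 10 symbols matched the RefSeq gene table (v5.5), from which neighbours were read.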

Additional observations from a re-analysis of the deposited data

Results flagged for a closer look

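The size of the light effect differed between timepoints by limma's interaction F test over 8 contrasts for FTR1 (adjusted p = 5.14e-12), FRE1 (adjusted p = 7.43e-13), NRAMP4 (adjusted p = 1.84e-05), FER1 (adjusted p = 7.71e-07), FOX1 (adjusted p = 2.05e-11), IRT2 (adjusted p = 0.00513) and FEA1 (adjusted p = 3.72e-12). The direction of the LL effect turned for FOX1 and FTR1, which were higher in LL than in ML at +6 and +10 with no overlap and lower at −2 and −10 with no overlap. For FEA1 and FRE1 the LL effect was largest at +10 on the log2 scale, and the HL effect was largest at +2.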

How the results depend on the processing

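Over the calls of the 8 genes (25 light, 38 step), the number kept was 63 of 63 with the replicate block and 57 to 63 in the other settings that refit all of them, and no called value reversed. Same-number libraries deviated together, with r above 0.1 in every pair, in 1 of 15 comparisons between populations (LL against ML at −10, r 0.154 to 0.329, where the block changed no call of the 8 genes and gave 712 calls against 708 over all genes) and in 0 of 15 steps (all pairs: −0.058 to 0.329 and −0.300 to 0.225). The replicate block gave 8 calls for HL against ML, 5 for LL against ML, 12 for HL against LL, 38 for steps and 7 interactions, as in the fit without it. With no fold threshold there were 18 calls for HL against ML, 18 for LL against ML and 66 for steps. Genes with a mean FPKM of at least 5 gave 3 calls for LL against ML and 23 for steps, since fewer genes were tested, and quantile normalization gave 8 for LL against ML (the cause was not tested). Leaving out each replicate gave 7 to 8 calls for HL against ML, 3 to 7 for LL against ML, 11 to 12 for HL against LL, 36 to 41 for steps and 5 to 7 interactions. Without ML replicate 3 at all timepoints, chosen after seeing the data, the counts were 8, 7, 12, 38 and 7. Scaling to the same median moved the median of all genes from 0.02 to −0.21 for the ML step from +6 to +10. The ML and LL steps of IRT2 from +10 to −10 were short of the fold threshold under scaling to the same median (−0.95 and −0.94) and quantile normalization (−0.79 and −0.82), and scaling likewise took the NRAMP4 step in ML between −10 and −2 below it (0.97). Smaller pseudocounts added more calls than they took away. A pseudocount of 0.1 added 15 calls and kept 63 of 63, and one of 0.01 added 16 and lost 6. At a pseudocount of 0.01, 5 steps were larger on the log2 scale but missed the p threshold: both IRT2 steps (−2.06 and −2.38, limma adjusted p = 0.0274 and 0.0140), the FEA1 step in ML and the FEA2 step in HL from +2 to +6 (−2.44 and −3.08, limma adjusted p = 0.0180 and 0.0292) and the FEA2 step in ML from −2 to +2 (2.94, limma adjusted p = 0.0283). Few fragments limit the precision for FEA1 and FEA2 in HL and for IRT1, IRT2 and FER2. The HL libraries had a relative depth of 0.748 to 1.12. LL replicate 1 at −2, where FEA2 and FER2 were listed at 0, had one of 0.168. The part that depth plays in the low values was not tested.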
